A study of Mus musculus with 12 samples.

Results

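The data described here are 4 of the 12 arrays of the series: bone marrow macrophages of Balb/cAnNCrl mice and of C57BL6/J mice that had been left without interleukin-4 (IL-4), 2 arrays of each strain. They were picked by their titles, Balbc Mock and C57BL6 Mock, replicates 1 and 2. The mice were inbred and carried no engineered allele that the labels name, and they were 8 to 12 weeks old. Marrow of 2 males and 1 female was pooled for a sample, and the replicates were 2 experiments on different littermates. In both strains the marrow cells were grown into macrophages with the growth factor CSF1 and then kept for 18 h in medium alone. The question is which genes differ between the strains at rest, before any IL-4. The other 8 arrays, cells given 10 ng/ml of IL-4 for 4 h or 18 h, serve only for the error estimate and for setting the resting difference beside the same difference on other arrays. The strains are called Balb/c and C57BL6 from here on. Each replicate is a pool, so p-values measure the spread between pools grown in culture and not between mice.

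Macrophages grown from marrow in CSF1 are a standard model of tissue macrophages: they engulf particles, sense microbial products and nucleic acids, and answer cytokines such as interferons and IL-4. Inbred strains carry fixed alleles throughout the genome. Balb/c and C57BL6 differ in their major histocompatibility complex (MHC) haplotype, d against b, and cells of the strains are often used as contrasting models, since Balb/c mice lean towards IL-4-driven responses and C57BL6 mice towards interferon-gamma-driven ones. A probe measures only the stretch of RNA it binds, so a gene is described by its kept probe with the highest mean signal, and its other probes are given where they were called differently.

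Every array held 43379 spots, and 58.9% to 69.0% of these were well above background on the 4 mock arrays by the call of the scanner software. Levels are log2 signals minus the 75th percentile of the array, so that 0 is the signal that 75% of spots fall below. Over the kept probes the mock replicates correlated at 0.98 within each strain and at 0.95 to 0.96 between strains. Of 22 macrophage identity genes, all tested, 0 were called different, with differences of -0.61 to 0.84 log2, and 5 had an unadjusted p below 0.05 (limma). This compares the strains and does not show what the cells are. Adgre1, a surface receptor by which mouse macrophages are sorted, stood at 7.46 and 7.27 in Balb/c and 7.30 and 7.23 in C57BL6. No slide held mock arrays of both strains. Both Balb/c mock arrays lay on slide 1, C57BL6 replicate 1 on slide 2 and C57BL6 replicate 2 on slide 3, so slide and strain cannot be told apart among the mock arrays alone. The scan groups were the same as the slides.

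Of 17016 genes tested, 1087 were called different between the untreated strains (6.39%), 502 higher in Balb/c (2.95% of all genes tested) and 585 lower (3.44%). A gene was called where its kept probe with the highest mean signal over the 4 mock arrays had an adjusted p below 0.05 (limma with Benjamini-Hochberg adjustment over all 25343 kept probes). Over probes, 1671 were called (6.59%). At least 2-fold differences made up 394 of the genes called higher and 425 of those called lower, at least 4-fold differences 174 and 188, and at least 16-fold differences 43 and 49. The 2 arrays of a strain did not overlap those of the other in any of the 1087, but neither did they in 49.1% of all genes tested. The median difference of all genes was -0.11 log2. On 128 called genes neither Balb/c array was well above background, and on 47 neither C57BL6 array was. These counts do not rest on equal limits of detection. The lowest signal called well above background was 25.9 and 27.5 on the Balb/c mock arrays and 26.5 and 14.9 on the C57BL6 ones. Spots well above background made up 60.2% and 58.9% against 61.3% and 69.0%. Such shares over all genes tested were not counted. The count fell to 487 without Balb/c replicate 1, to 550 without C57BL6 replicate 1 and to 644 without C57BL6 replicate 2, and it was 930 without Balb/c replicate 2. With slide as a block, which only the IL-4 arrays make possible, 593 genes were called, and 445 of these were among the 1087. A fit of only the 4 mock arrays called 391 genes, 350 of them among the 1087. Below, lost calls are listed for left-out arrays and the slide block, and those of this last fit, with some from other settings, mostly near the end.

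**Figure D1:**
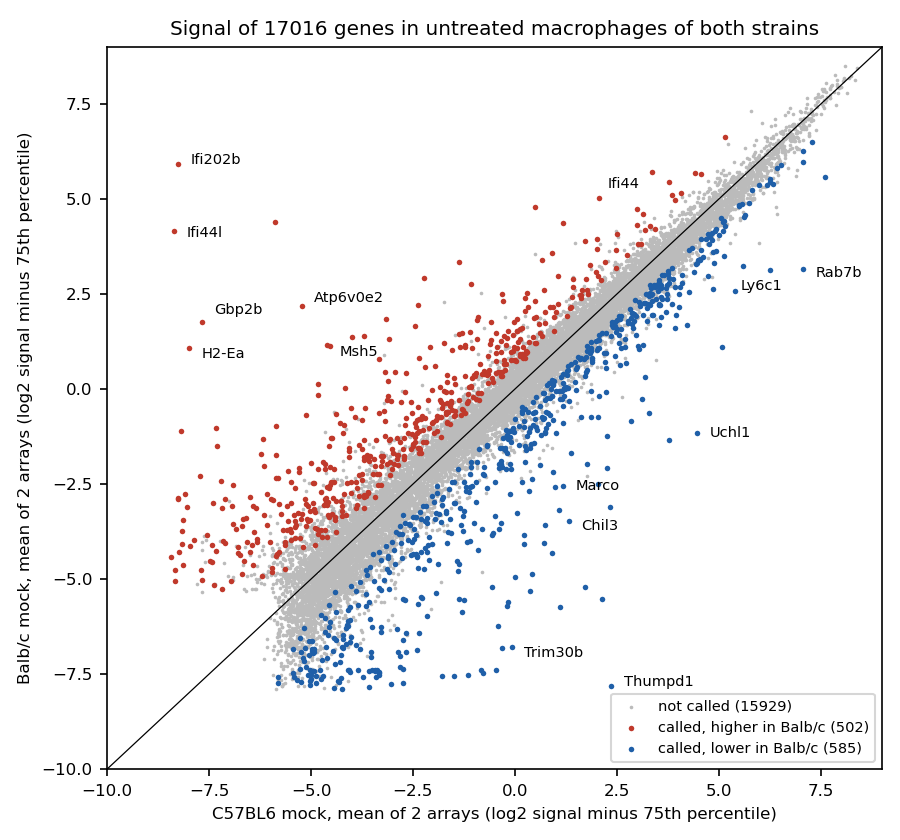
Mean log2 level of 17016 genes on the 2 Balb/c mock arrays (vertical axis) against the 2 C57BL6 mock arrays (horizontal axis), each relative to the array's 75th percentile. Grey points are genes not called, red points the 502 called higher in Balb/c and blue points the 585 called lower, and the line marks equal levels. Ifi202b, Ifi44l, Gbp2b and H2-Ea lie far above the line at the background level of C57BL6, and Thumpd1 and Trim30b lie far below it.

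The stretches around the start of 5 genes with large differences are shown because these genes belong to interferon-related families whose members differed in opposite directions, and because Ifi44 and Ifi44l lie next to each other. Each runs from 250 bases before to 50 bases after the gene's start, 5′ to 3′ on the gene's strand, from RefSeq on GRCm38.p6, which is the C57BL/6J sequence. Sequence of Balb/c was not used here. Ifi202b lies on the minus strand at chr1:173982795-173983094, Ifi44l on the minus strand at chr3:151762842-151763141 and Ifi44 on the minus strand at chr3:151749861-151750160. Gbp2b lies on the plus strand at chr3:142594597-142594896 and Trim12a on the minus strand at chr7:104315446-104315745. Capitals mark matches to the core of the interferon-stimulated response element, searched as GAAA repeated after a gap of 2 bases of any kind, or TTTC repeated likewise on the other strand.
Ifi202b: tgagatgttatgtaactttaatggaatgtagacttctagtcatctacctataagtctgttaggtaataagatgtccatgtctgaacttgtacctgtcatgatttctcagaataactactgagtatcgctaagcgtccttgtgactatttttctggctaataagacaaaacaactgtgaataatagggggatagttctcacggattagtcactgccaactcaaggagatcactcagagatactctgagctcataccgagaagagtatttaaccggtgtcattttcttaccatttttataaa
Ifi44l: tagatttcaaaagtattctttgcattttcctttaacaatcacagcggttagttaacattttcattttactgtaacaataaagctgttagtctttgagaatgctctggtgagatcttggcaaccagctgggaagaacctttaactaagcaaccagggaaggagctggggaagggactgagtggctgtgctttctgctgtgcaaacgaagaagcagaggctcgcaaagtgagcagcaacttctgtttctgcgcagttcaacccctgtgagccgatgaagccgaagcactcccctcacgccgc
Ifi44: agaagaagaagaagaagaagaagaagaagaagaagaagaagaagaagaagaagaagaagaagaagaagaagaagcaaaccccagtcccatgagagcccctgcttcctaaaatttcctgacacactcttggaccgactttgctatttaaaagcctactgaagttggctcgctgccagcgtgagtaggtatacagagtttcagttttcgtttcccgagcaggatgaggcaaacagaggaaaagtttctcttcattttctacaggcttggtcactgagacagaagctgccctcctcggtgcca
Gbp2b: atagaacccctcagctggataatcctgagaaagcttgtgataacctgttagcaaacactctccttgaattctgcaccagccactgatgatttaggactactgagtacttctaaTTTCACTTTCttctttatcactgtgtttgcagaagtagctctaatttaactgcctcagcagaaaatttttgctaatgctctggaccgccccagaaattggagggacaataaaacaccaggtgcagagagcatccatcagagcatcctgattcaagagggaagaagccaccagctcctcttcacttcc
Trim12a: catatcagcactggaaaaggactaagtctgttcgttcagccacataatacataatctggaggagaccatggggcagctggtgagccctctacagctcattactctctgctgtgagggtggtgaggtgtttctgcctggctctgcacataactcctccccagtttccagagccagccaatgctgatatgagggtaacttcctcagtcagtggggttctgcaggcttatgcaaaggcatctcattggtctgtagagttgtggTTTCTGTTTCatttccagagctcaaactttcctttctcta
Gbp2b held 1 match, which starts 137 bases before the gene's start, and Trim12a held 1 as well, just after it. The windows of Ifi202b, Ifi44l and Ifi44 held 0. Windows of Hal, Thumpd1, Atp6v0e2, Aim2, Chil3, Trim30b, Il1b and Marco were searched too, are not shown and held 0. Over all 32851 windows of this length in the table, 3.44% held the motif. A match is a description of these letters and does not show that a factor binds there, nor does its lack show the opposite.

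The largest difference of all was in Ifi202b, an interferon-inducible DNA-binding protein of the p200 family whose expression is known to vary between inbred strains. Its levels were 5.79 and 6.06 on the Balb/c arrays and -7.72 and -8.82 on the C57BL6 arrays, where it was not well above background. The strains were at least 4459-fold apart (adjusted p = 3.32e-06, by limma with Benjamini-Hochberg adjustment). Here and below, "at least" sets the strain that measured the gene against the lowest signal called well above background on each array of the other, or against the gene's own signal there where that is higher. An adjusted p beside such a bound belongs to the fitted difference of the signals as measured and does not test the bound. Such probes were kept through the strain that measured them alone. Ifi44l, an interferon-induced protein of the cytoplasm, stood at 4.06 and 4.27 in Balb/c and at -7.78 and -8.94 in C57BL6, at least 1316-fold apart (adjusted p = 5.41e-06). Its neighbour Ifi44 was measured in both strains, at 4.87 and 5.16 against 2.10 and 2.03, a difference of 2.95 ± 0.27 log2 (SE, 2 arrays a strain, adjusted p = 5.25e-04). The other probe of Ifi44 gave 2.72 ± 0.56. Gbp2b, a guanylate-binding GTPase of interferon-treated cells, read 2.19 and 1.33 in Balb/c and -7.70 and -7.66 in C57BL6, at least 248-fold apart (adjusted p = 2.79e-05). In all 4 genes the groups lie far apart relative to the gap between replicates. Arrays of the strains did not overlap in any called gene, so such a gap partly follows from the choice of genes. Each of Ifi202b, Ifi44l and Gbp2b had 1 kept probe, and probes of families with close copies, such as the guanylate-binding and p200 genes, can also bind a relative.

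Of 44 interferon response genes tested, Ifi44l and Ifi44 were the 2 called higher and 0 were called lower, 4.55% of the list against 6.39% of all genes, and the median of the list was 0.01 log2 against -0.11 over all genes. List members were chosen with earlier results of these data known, so list shares, here and below, are descriptions and no test of a family. Isg15, a ubiquitin-like modifier, differed by -0.47, Ifit3 by -0.43 and Oas1a by 0.00, all without a call. Among 15 interferon-inducible GTPases, Gbp2b was called higher and 2 were called lower, 20% of the list. Irgm2 stood at 3.69 and 3.63 in Balb/c against 4.59 and 4.54 in C57BL6 (-0.90 ± 0.16, adjusted p = 0.0157), and Gvin1, a very large GTPase, at 3.25 and 3.69 against 4.54 and 4.68 (-1.13 ± 0.18, adjusted p = 0.00914). Gbp2, the close relative of Gbp2b, differed by -0.48 with no call. Of the 3 probes of Gvin1, 2 were called and the last differed by 0.37 ± 0.21. Leaving out any of the 4 arrays ended the call of Irgm2, and leaving out Balb/c replicate 1 or C57BL6 replicate 2, or taking slide as a block, ended that of Gvin1. Of 8 Schlafen genes, 0 were called.

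The p200 family and the nucleic acid sensors split in both directions on chromosome 1. Of 11 tested, 2 were called higher in Balb/c and 2 lower, 36.4% of the list against 6.39% of all genes. Beside Ifi202b, Aim2 was higher, the sensor of cytosolic DNA that starts an inflammasome. It read -3.93 and -4.21 in Balb/c and was not well above background on either C57BL6 array, at least 4.35-fold apart (adjusted p = 8.03e-04). Ifi209 was lower on 2 of 3 probes, at 1.84 and 2.04 against 3.17 and 3.11 (-1.20 ± 0.18, adjusted p = 0.0061). Ifi205 was lower too, at 5.51 and 5.30 against 6.36 and 6.31 (-0.93 ± 0.15, adjusted p = 0.00923), but its other kept probe differed by 0.00 ± 0.56. Ifi204 and Ifi203, of the same family, were not called by their brightest probes, at -0.15 and 0.22, but dimmer probes of both were called higher, 1 of Ifi204 (1.10 ± 0.22) and 2 of Ifi203 (1.15 ± 0.26 and 1.44 ± 0.30). The call of Ifi209 was lost without Balb/c replicate 1, that of Ifi205 without C57BL6 replicate 1, and both with slide as a block.

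Inflammasome genes moved in both directions as well, with 2 of 17 called higher and 2 lower, 23.5% against 6.39% of all genes. Il1b, which encodes the cytokine that the inflammasome matures, stood at -0.16 and -1.61 in Balb/c and at -4.17 and -4.40 in C57BL6 (3.40 ± 0.49, adjusted p = 0.00525). That call was lost with slide as a block. Pycard, the adaptor ASC, was lower at 4.06 and 4.53 against 5.26 and 5.06 (-0.86 ± 0.20, adjusted p = 0.042), on both of its probes. Nlrp1a, a sensor of the Nlrp1 family, was lower at -5.51 and -5.09 against -3.36 and -3.18 (-2.03 ± 0.24, adjusted p = 0.00209), above background on only 1 of the 2 Balb/c arrays. Nlrp3 (-0.33) and Casp1 (-0.32) were not called. The call of Pycard was lost without Balb/c replicate 1, C57BL6 replicate 1 or C57BL6 replicate 2, and with slide as a block.

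**Figure D2:**
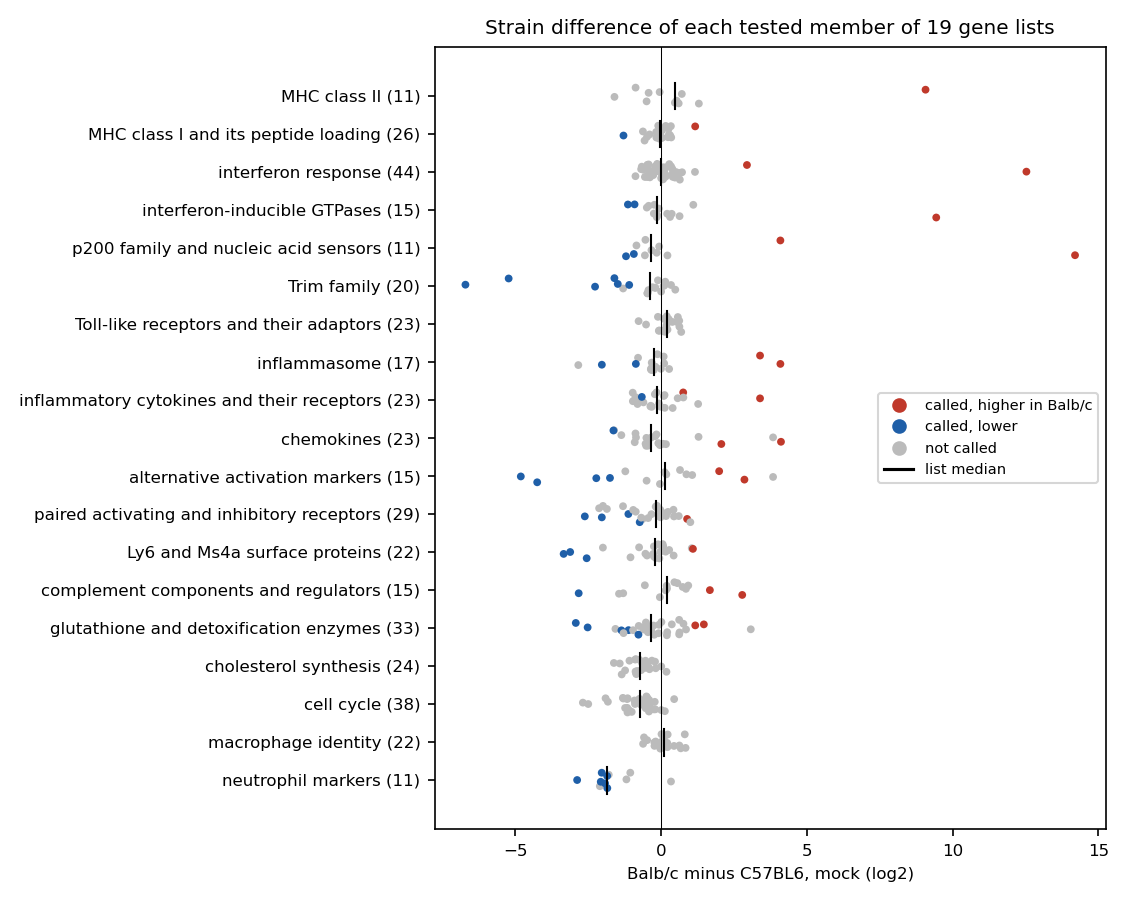
Log2 difference (Balb/c minus C57BL6, horizontal axis) of each tested member of 19 gene lists in untreated macrophages, with the number of tested members in parentheses. Red and blue points are genes called higher and lower in Balb/c, grey points are not called, and the black bar is the median of the list. The interferon response list has its 2 called genes far from its other members, and the Trim and neutrophil lists have called genes on the lower side alone.

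Trim genes, which encode ubiquitin ligases with roles in antiviral defence, were called lower in 6 of 20 tested and higher in 0. That is 30% of the list, against 3.44% of all genes called lower. Members of this and the other lists were chosen with earlier results of these data known. The list median was -0.36 log2. Of the 6, 5 lie on chromosome 7 (Trim30b, Trim12a, Trim34a, Trim30d and Trim6) and Trim56 lies on chromosome 5. Trim30b stood at -0.30 and 0.13 in C57BL6 and was not well above background on either Balb/c array, at least 44.1-fold lower (adjusted p = 2.07e-04). Trim12a, whose start is shown above, read -4.03 and -4.60 in Balb/c and 0.98 and 0.84 in C57BL6 (-5.22 ± 0.37, adjusted p = 1.36e-04). Its other probe stood at 3.86 and 3.94 in C57BL6 and was not well above background in Balb/c, at least 696-fold lower (adjusted p = 1.46e-06). Trim34a was at -0.18 and -0.21 against 2.08 and 2.04 (-2.26 ± 0.17, adjusted p = 2.14e-04). Its other probes gave -0.79 ± 0.16, also called, and -0.61 ± 0.24, not called. Trim30d (-1.60 ± 0.19, both probes called) and Trim6 (-1.48 ± 0.19) were lower by less. Trim30a, of the same cluster, differed by -0.29 ± 0.16 and was not called, and Trim12c by -1.30 (adjusted p = 0.0573). Trim56 (-1.09 ± 0.17) lost its call without Balb/c replicate 1. The chromosome 7 genes are close copies of one another, so a probe may bind more than the gene it is named for.

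In the MHC, H2-Ea was the only called gene among 11 of class II, 9.09% of the list against 6.39% of all genes. It encodes the alpha chain of the I-E molecule, and the b haplotype of C57BL6 is known to carry a broken copy. It read 1.78 and 0.39 in Balb/c and was not well above background on either C57BL6 array, at least 155-fold apart (adjusted p = 1.65e-04). The remaining class II genes were not called: H2-Aa differed by 1.30 on its brighter probe and by -1.38 on the other, H2-Eb1 by 0.61, and H2-Ab1 by 0.48 on the brightest of 4 probes and by -0.43 to 0.63 on the others. The Balb/c replicates themselves lay apart, with a median deviation of the list from the C57BL6 mean of 1.13 log2 in replicate 1 and -0.74 in replicate 2. Of 26 class I and peptide loading genes, H2-T24 was called higher and Tap2, a subunit of the peptide transporter, lower. That is 7.69% of the list, against 6.39% of all genes. H2-T24 (1.17 ± 0.19) lost its call without Balb/c replicate 2 or either C57BL6 replicate. Tap2 stood at 1.55 and 1.65 in Balb/c against 2.98 and 2.79 in C57BL6 (-1.28 ± 0.14, adjusted p = 0.00124). H2-K1 and H2-D1, the classical class I genes, differed by -0.01 and 0.28 with no call. The class I genes are near-identical and polymorphic, so their probes can differ in how they bind each haplotype, which was not tested.

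Ligands of the activating receptor NKG2D differed in opposite directions. Raet1e stood at -0.17 and -0.18 in C57BL6 and was not well above background in Balb/c, at least 39.7-fold lower (adjusted p = 1.63e-04), while Raet1a (-1.54) and Ulbp1 (-0.47) were not called. H60, a ligand known from Balb/c, was looked at after its values were seen. A probe of H60 read 0.54 and 0.72 in Balb/c and was at background on both C57BL6 arrays, at least 103.5-fold apart (adjusted p = 5.51e-06), and the other differed by 0.94 ± 0.21, a call that leaving out any of the 4 arrays ended. Klrk1, the gene of the receptor itself, was higher in Balb/c, at -3.43 and -4.28 with neither C57BL6 array above background, at least 5.06-fold (adjusted p = 4.42e-04).

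Among genes measured on all 4 arrays, the largest difference towards Balb/c was in Atp6v0e2, a subunit of the proton pump that acidifies vesicles. It stood at 2.44 and 1.91 in Balb/c and -5.15 and -5.32 in C57BL6 (7.41 ± 0.33, adjusted p = 1.26e-05), and its other probe gave 5.55 ± 0.44. Msh5, a MutS homologue of meiosis encoded in the MHC region of chromosome 17, read 1.21 and 1.10 against -4.76 and -4.46 (5.77 ± 0.21, adjusted p = 5.51e-06). All 3 of its probes were called, as were both of Sapcd1 on the same chromosome (4.96 ± 0.31). Chst10, a sulfotransferase, was at 1.26 and 1.50 against -3.67 and -3.74 (5.09 ± 0.19, adjusted p = 5.98e-06). Nrcam, a cell adhesion molecule best known from neurons, was at 3.13 and 3.55 against -1.52 and -1.23 (4.72 ± 0.24), and all 3 of its probes were called. Ctse, the aspartic protease cathepsin E, stood at 2.59 and 1.85 against -2.17 and -2.56 (4.58 ± 0.39, adjusted p = 3.54e-04). It was the only called gene of 29 lysosomal proteases and hydrolases, 3.45% of the list against 6.39% of all genes. Plau, the protease urokinase, was at 4.16 and 5.44 against 0.15 and 0.81 (4.32 ± 0.49, adjusted p = 0.00166), on both probes. In each of these genes both Balb/c arrays lay above both C57BL6 arrays by more than the gap between replicates. That partly follows from choosing called genes by size. Cpne8 (5.36 ± 0.64), Hebp2 (4.39 ± 0.27), Mmel1 (4.19 ± 0.24) and the calcium channel gene Ryr1 (3.74 ± 0.31, on 2 of 3 probes) were also higher. Jaml (5.16 ± 1.11) and Fbp1 (4.67 ± 0.88), the latter an enzyme of gluconeogenesis, were higher with a wide gap between the Balb/c arrays, at 4.33 and 1.53 and at 0.95 and -1.25. Their calls were lost without Balb/c replicate 1, without C57BL6 replicate 1, without C57BL6 replicate 2 and with slide as a block.

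Further genes were at background in C57BL6 alone. Tafa2, a secreted chemokine-like protein, was at least 34.1-fold higher in Balb/c, Angptl7 at least 35.8-fold, and Crym, which binds thyroid hormone, at least 13.6-fold. Arg2, the mitochondrial arginase, read -1.11 and -3.45 in Balb/c, at least 15.1-fold higher (adjusted p = 0.00449), a call lost with slide as a block. Hal, which encodes the enzyme that deaminates histidine, was chosen after its values were seen: it stood at 4.64 and 4.17 in Balb/c and at -6.00 and -5.77 in C57BL6, above background on 1 of the 2 C57BL6 arrays (10.29 ± 0.46, adjusted p = 1.29e-05).

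**Figure D3:**
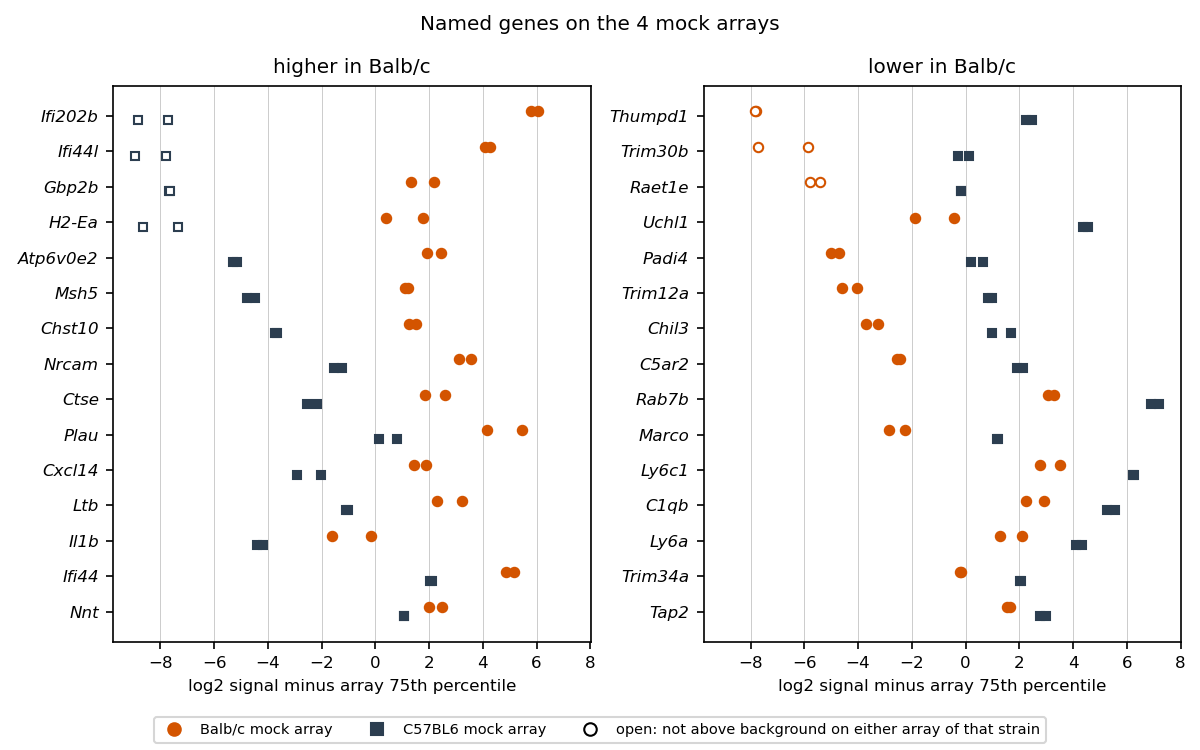
Log2 level (relative to the array's 75th percentile, horizontal axis) of 15 genes called higher and 15 called lower in Balb/c, on each of the 4 mock arrays. Circles are Balb/c arrays, squares C57BL6 arrays, and open symbols mark a strain in which neither array was well above background. In every gene drawn the arrays of a strain lie together and apart from those of the other, which partly follows from drawing called genes. The widest gaps are in genes with open symbols, and they are gaps between signals as measured and no bounds.

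On the lower side, Thumpd1 had the largest difference among brightest probes. It encodes a partner of the enzyme that acetylates RNA. Its brighter probe stood at 2.49 and 2.23 in C57BL6 and at -7.81 and -7.82 in Balb/c, at least 239.5-fold lower (adjusted p = 5.41e-06). The other read -3.30 and -2.67 in Balb/c and -3.54 and -2.35 in C57BL6, a difference of -0.04 ± 0.43. The large value is thus that of the brighter probe alone. Uchl1, a ubiquitin hydrolase abundant in neurons, was lower on both probes, at -1.87 and -0.43 in Balb/c against 4.38 and 4.55 (-5.62 ± 0.48, adjusted p = 3.54e-04). Padi4, which turns arginine in histones into citrulline, was lower on all 3 probes, at -4.70 and -5.02 against 0.63 and 0.20 for the brightest (-5.28 ± 0.31, adjusted p = 4.7e-05). C5ar2, a receptor for the complement fragment C5a, stood at -2.56 and -2.43 against 1.92 and 2.14 (-4.53 ± 0.31, adjusted p = 1.22e-04), the only call among 20 chemoattractant receptors. That is 5% of the list, against 6.39% of all genes. Rab7b, a small GTPase of late endosomes, read 3.06 and 3.28 against 6.92 and 7.21 (-3.89 ± 0.22, adjusted p = 3.74e-05). Cyp4f18, which oxidises leukotriene B4, was at -1.63 and -2.29 against 1.96 and 1.59 (-3.74 ± 0.24). In these genes, too, the strains lay further apart than the replicates, as their choice by call and size favours.

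Dppa3 (-4.31 ± 0.33), Prim2, a subunit of DNA primase (-4.34 ± 0.35), and Arl2bp (-3.92 ± 0.19, both probes called) were lower as well. Spint1, a protease inhibitor, was lower on both probes (-4.95 ± 0.83), a call lost without Balb/c replicate 1 or C57BL6 replicate 2. Rgcc (-4.29 ± 0.94) lost its call without Balb/c replicate 1 or either C57BL6 replicate, and with slide as a block. Genes at background in Balb/c alone included Pgbd5, derived from a transposase, at least 37.7-fold lower, Ppp1r14c, a phosphatase inhibitor, at least 34.8-fold by the brightest of 3 probes (another was at least 2.90-fold lower, and the last, at 0.83 ± 0.47, was not called), and Prdm16, a transcriptional regulator known from brown fat, at least 20.8-fold. Abcb10, a transporter of the inner mitochondrial membrane, was at least 19.1-fold lower with both probes called. Tspan32, Vill and Rab6b were chosen after their values were seen. Each was above background on 1 of the 2 Balb/c arrays by its brightest probe, with differences of -7.67 ± 1.11, -6.93 ± 0.28 and -6.83 ± 0.66, and the other probe of each was called lower too.

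Of 23 inflammatory cytokines and receptors, Il1b and Ifnar2 were called higher and Tnfrsf1a lower, 13% of the list against 6.39% of all genes, while Tnf differed by -0.96 with no call. The other probe of Ifnar2 was not called (0.50 ± 0.20). Ifnar2 (0.76 ± 0.15) lost its call without either Balb/c replicate or C57BL6 replicate 1, and Tnfrsf1a (-0.66 ± 0.15) whichever of the 4 arrays was left out, and both with slide as a block. Of 23 chemokines, 13% of which were called, Cxcl14 was higher at 1.44 and 1.87 against -2.92 and -2.01 (4.12 ± 0.50, adjusted p = 0.00221) and Cxcl11 at -1.51 and -1.18 against -3.47 and -3.36 (2.07 ± 0.34, adjusted p = 0.00956). Cx3cl1 was lower at -0.26 and -0.36 against 0.97 and 1.68 (-1.63 ± 0.28, adjusted p = 0.0124). Ltb, the membrane anchor of lymphotoxin, was on none of these lists and was higher at 3.22 and 2.31 against -1.10 and -1.03 (3.83 ± 0.32, adjusted p = 3.45e-04). Of 23 Toll-like receptors and adaptors 0 were called, with differences of -0.77 to 0.69 and 0.58 for Tlr4. The call of Cxcl11 was lost without Balb/c replicate 2 or C57BL6 replicate 1, and that of Cx3cl1 without either Balb/c replicate or C57BL6 replicate 2.

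Of 15 complement genes tested, 2 were called higher, Masp1 among them, and C1qb lower, 20% of the list against 6.39% of all genes. C1qb, a chain of the initiator C1q that macrophages secrete, stood at 2.93 and 2.23 in Balb/c against 5.55 and 5.25 (-2.82 ± 0.32, adjusted p = 0.00153). C1qa (-1.44, adjusted p = 0.0636) and C1qc (-1.29, adjusted p = 0.0949), which encode the other chains of the same protein, had the same sign without a call. Masp1, a protease of the lectin pathway, was at -2.09 and -1.74 against -4.96 and -4.44 (2.79 ± 0.32).

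Surface proteins of the Ly6 and Ms4a families were called lower in 3 of 22 (Ly6c1, Ly6a and Ms4a3) and higher in 1 (Ms4a6d). That is 18.2% of the list, against 6.39% of all genes. Calls of both Ms4a genes were lost with slide as a block, that of Ms4a6d also whichever of the 4 arrays was left out and that of Ms4a3 without Balb/c replicate 1 or C57BL6 replicate 1. Ly6c1, a family member used to sort monocytes, stood at 3.52 and 2.76 in Balb/c against 6.28 and 6.23 in C57BL6 (-3.11 ± 0.31, adjusted p = 8.44e-04), but its other probe differed by 1.50 ± 0.82 and was not called. Ly6a, which encodes Sca-1 and has known alleles of different expression in these strains, was at 2.09 and 1.28 against 4.33 and 4.13 (-2.55 ± 0.36, adjusted p = 0.00456). Marco, a scavenger receptor for bacteria, read -2.24 and -2.87 against 1.17 and 1.20 (-3.74 ± 0.30, adjusted p = 2.53e-04). Within 24 genes of scavenging and lipid handling, Cd5l (-2.03 ± 0.45) and Nr1h3, the liver X receptor alpha (-1.28 ± 0.25), were lower as well and Cd163, the haemoglobin scavenger receptor (1.44 ± 0.24), was higher. Calls of Cd5l and Nr1h3 were lost whichever of the 4 arrays was left out, and that of Cd163 without either C57BL6 replicate and with slide as a block. Paired receptors were called lower in 4 of 29 (Lair1, Lilra6, Siglecf, Treml4) and higher in 1 (Pira6). C-type lectins had 2 called of 20, Klrk1 and Cd209a, both higher, Fc receptors 1 of 9 (Fcrl1, lower) and integrin subunits 3 of 19 (Itga9 higher, Itga6 and Itgb2l lower). The shares called were 16.7% for scavenging and lipid handling, 17.2% for paired receptors, 10% for lectins, 11.1% for Fc receptors and 15.8% for integrins. Calls of Lilra6, Pira6 and Itgb2l were lost whichever of the 4 arrays was left out, that of Treml4 without Balb/c replicate 1 or either C57BL6 replicate, that of Siglecf without Balb/c replicate 2 or either C57BL6 replicate, that of Itga6 without either Balb/c replicate or C57BL6 replicate 2, and that of Cd209a without C57BL6 replicate 2. With slide as a block the calls of Itga6, Itgb2l, Lilra6, Pira6 and Treml4 were lost. Other probes of Itga6, Lilra6 and Lair1 were not called, 2, 1 and 1 in number.

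The readiness of the cells for IL-4 was covered by 22 genes of the receptor pathway and 15 markers of alternative activation. In the pathway, Jak3 was called higher by 0.83 ± 0.19 log2 (adjusted p = 0.0395), a call lost without Balb/c replicate 1 or either C57BL6 replicate, and with slide as a block, and 0 were lower. That is 4.55% of the list, against 6.39% of all genes. The other probe of Jak3 was not called (0.45 ± 0.16). Il4ra, a chain of the IL-4 receptor, differed by 0.00 and Stat6, its transcription factor, by -0.41, with no call. Of the markers, 4 were lower in untreated Balb/c cells and 2 higher, 40% of the list against 6.39% of all genes. Chil3, the chitinase-like protein Ym1, stood at -3.26 and -3.71 against 1.67 and 0.97 (-4.81 ± 0.58, adjusted p = 0.00218). Its close copy Chil4 was at background in Balb/c, at least 7.27-fold lower (adjusted p = 0.00643), a call lost with another background correction. Flt1, a receptor for vascular growth factors, was lower (-1.75 ± 0.26 on the brightest and called on 2 of 3 probes, lost without Balb/c replicate 1 or with slide as a block) and so was Cdh1 (at least 2.22-fold, adjusted p = 0.0493, a call that any left-out array or the slide block ended). Slc7a2, an importer of arginine, read -4.34 and -4.78 in Balb/c and was at background in C57BL6, at least 3.10-fold higher (adjusted p = 0.00215). Ccl24 differed by 3.84 and missed the threshold by its brighter probe (adjusted p = 0.0618), while the other was called higher (at least 20.8-fold, adjusted p = 0.0438).

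Enzymes of glutathione and detoxification were called lower in 5 of 33 (Gsta3, Gstm2, Srxn1, Gclm and Txn1) and higher in 2, Glo1 and Nnt. That is 21.2% of the list, against 6.39% of all genes. The list median was -0.33 log2. Nnt makes NADPH in mitochondria and is known to carry a deletion of exons in C57BL6/J. It stood at 2.47 and 2.00 in Balb/c against 1.06 and 1.05 in C57BL6 (1.18 ± 0.21, adjusted p = 0.0147), and its 3 kept probes gave 1.18, 1.29 and 1.54, all called. The C57BL6 signal was thus well above background for each of these probes, and their places relative to the deletion are not given in the sources used here. Glo1, the glyoxalase that clears methylglyoxal, was at 2.92 and 2.87 against 1.56 and 1.29 (1.47 ± 0.24, adjusted p = 0.0102). Gsta3, a glutathione transferase, was lower on both probes, at -3.37 and -4.65 against -1.41 and -0.78 for the brighter (-2.92 ± 0.49), lost without C57BL6 replicate 2. Calls of Nnt and Glo1 were lost with slide as a block and without Balb/c replicate 1 or C57BL6 replicate 2, and that of Nnt also without C57BL6 replicate 1. Srxn1, called on 1 of 3 probes, lost its call without Balb/c replicate 1 or C57BL6 replicate 1, and with slide as a block.

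Housekeeping programmes showed no called genes: 0 of 28 ribosomal proteins, 0 of 30 respiratory chain subunits, 0 of 21 glycolysis genes, 0 of 24 cholesterol synthesis genes and 0 of 38 cell cycle genes. At an unadjusted p below 0.05 (limma) these lists held 1, 2, 7, 6 and 5 genes. Cell cycle genes had a median of -0.71 log2, and 35 of 38 lay below 0. The median deviation from the C57BL6 mean was -1.27 in Balb/c replicate 1 and -0.15 in replicate 2. The cyclins Ccnd2 (-2.68) and Ccne2 (-2.49) were not called. Cholesterol synthesis showed the same split, with a median of -0.71 and deviations of -1.06 and -0.23 in the Balb/c replicates. Eicosanoid enzymes (0 of 16) and the NADPH oxidase (0 of 9) had no calls either. Of 22 immediate-early genes, Fos (-1.50 ± 0.36) and Nr4a1 (-1.26 ± 0.29) were called lower, and the call of Fos was lost whichever of the 4 arrays was left out and that of Nr4a1 without Balb/c replicate 2 or either C57BL6 replicate, and both with slide as a block. Iron genes had Tfrc called higher and Lcn2 and Steap3 lower of 16, and matrix genes had Plau and Fn1 higher of 24. The shares called were 9.09% of immediate-early, 18.8% of iron and 8.33% of matrix genes, against 6.39% of all genes. Tfrc lost its call without Balb/c replicate 1 or C57BL6 replicate 1, and Fn1 without Balb/c replicate 1 or C57BL6 replicate 2, and both with slide as a block. The call of Lcn2 was lost with another background correction and with a common floor for dim values, both described near the end.

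Markers of other cells in the cultures were read beside these results. Neutrophil markers were the list with the largest share of calls among the 47 lists: 6 of 11 tested were lower in Balb/c and 0 higher, with a median of -1.84 log2. That is 54.5% of the list, against 6.39% of all genes. S100a9, a calcium-binding protein of neutrophils and monocytes, stood at 1.80 and 1.57 in Balb/c against 3.67 and 3.39 (-1.84 ± 0.28, adjusted p = 0.00686, lost without C57BL6 replicate 1), and Ngp, a granule protein, at -3.17 and -3.52 against -1.08 and -1.49 (-2.06 ± 0.23, adjusted p = 0.00149). Camp (-2.87 ± 0.30) and Ltf (-1.92 ± 0.23), granule proteins too, were lower. Calls of Ltf and S100a9 were lost with slide as a block. Summed on the linear scale, in multiples of the array's 75th percentile, the 11 markers reached 5.03 to 11.2 in Balb/c and 15.8 to 18.9 in C57BL6. In bulk samples fewer cells of a type and less RNA per cell cannot be told apart. The part of such cells in the lower values of Ly6c1, Chil3, Padi4 and other genes was not tested. Stromal markers were called higher for Pdgfrb (3.52 ± 0.41), Thy1 (1.92 ± 0.38) and Postn (1.45 ± 0.26) of 10, while Col1a1 (-0.98) and Col1a2 (-0.23) were not called, and their summed level was 29.5 to 38.5 in Balb/c and 35.7 to 40.3 in C57BL6. Calls of Thy1 and Postn were lost whichever of the 4 arrays was left out, and with slide as a block, and the other probe of Postn had the opposite sign and was not called. Dendritic cell markers had Cd209a and Dpp4 higher of 9, B cell markers Ighm higher of 9, T and NK cell markers Thy1 higher and Klrb1c lower of 8, and eosinophil markers Siglecf lower of 3. The shares called were 30% of stromal, 22.2% of dendritic cell, 11.1% of B cell, 25% of T and NK cell and 33.3% of eosinophil markers. The call of Dpp4 was lost whichever of the 4 arrays was left out and that of Ighm without Balb/c replicate 1 or either C57BL6 replicate and with slide as a block. Mast cell, erythroid, megakaryocyte, osteoclast and sex-linked lists had 0 calls.

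The array carried more than 1 kept probe for 5813 of the 17016 genes and 1 for 11203. Of the 5813, 364 were called by their brightest probe. In 125 of these (34.3%) every kept probe was called in the same direction, and in 288 (79.1%) every probe had the same sign. In 76 at least 1 other probe had the opposite sign. A further 347 genes had a called probe that was not the brightest. Vps13c, which moves lipid between membranes, was called higher on all 5 of its probes, by 0.79 to 1.18 log2, though the call of the brightest was lost without Balb/c replicate 2 or either C57BL6 replicate and with slide as a block, and Znf41-ps was lower on all 4, by -1.59 to -0.70. They and 2610005L07Rik were the 3 of 500 genes with at least 4 kept probes in which every probe was called the same way.

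In 19 genes probes were called in opposite directions. Zfp945, a zinc finger gene on chromosome 17, had probes at 1.58 ± 0.37 (lost without Balb/c replicate 1 or either C57BL6 replicate, and with slide as a block), 2.69 ± 0.38 and a probe at least 68.5-fold lower. The last of these read -6.50 and -6.99 in Balb/c and 0.45 and 0.65 in C57BL6, with neither Balb/c array well above background. Arsk, a sulfatase gene, had probes at 2.46 ± 0.27 and -3.91 ± 0.34, and Ttc12 had a probe at 2.77 ± 0.20 and another at least 2.70-fold lower. Wdfy1, a phosphoinositide-binding adaptor, was higher on probes at 1.82 ± 0.24 and 2.14 ± 0.20 and lower on the third at -1.40 ± 0.18. Gadd45gip1 had probes at -1.53 ± 0.22, a call lost with slide as a block, and 1.57 ± 0.15. In Gcnt1, a glycosyltransferase, the brightest probe was lower (-3.96 ± 0.23) and the other probes, at 0.58 ± 0.18 and 0.73 ± 0.18, were not called. For such genes the array gives no direction for the gene as a whole.

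**Figure D4:**
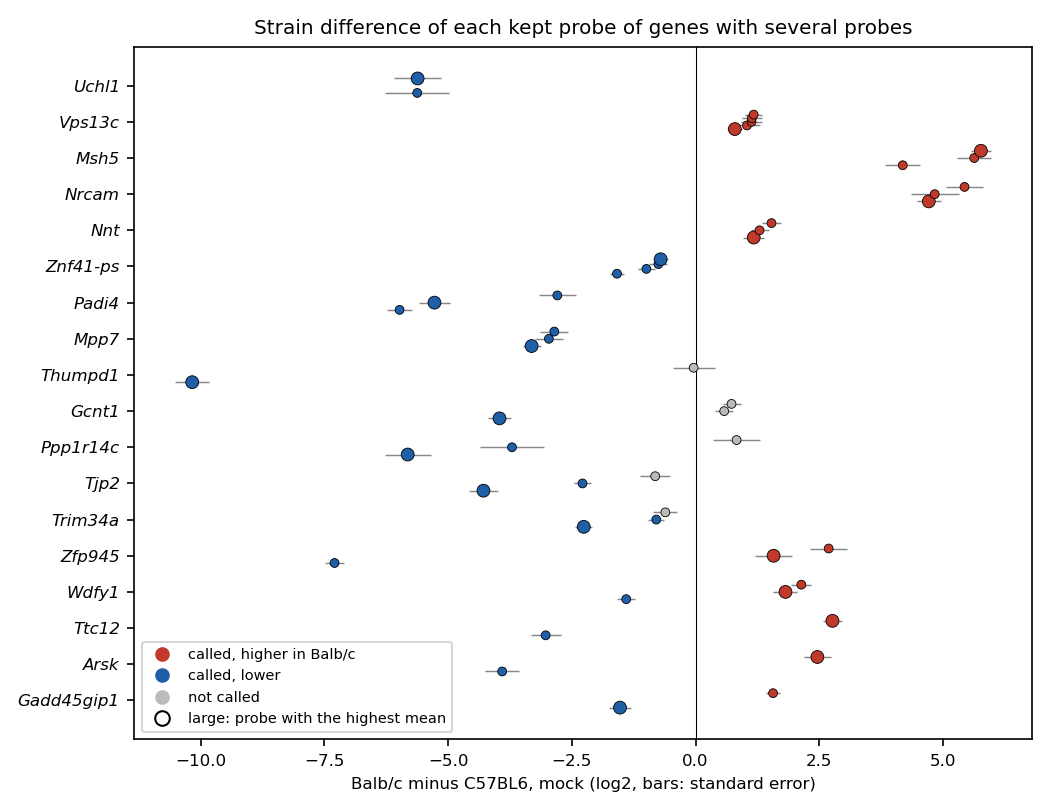
Log2 difference (Balb/c minus C57BL6, horizontal axis, bars are standard errors) of every kept probe of 18 genes with several probes, the large symbol being the probe with the highest mean, and a difference towards a strain not above background is fitted and no bound. Red and blue mark probes called higher and lower, grey probes not called. Msh5, Nrcam, Padi4 and Mpp7 have all probes on the same side, and Zfp945, Wdfy1, Ttc12, Arsk and Gadd45gip1 have called probes on both sides.

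By position, the share of tested genes called ran from 3.67% on chromosome 15 to 8.68% on chromosome 18, against 6.39% over all. Chromosome 17, which carries the MHC, had 48 called of 696 (6.90%), 14 higher and 34 lower. Runs of at least 4 neighbouring tested genes that were all called occurred at 2 places, in the gene order of GRCm38.p6. On chromosome 4, 6 neighbours were all lower in Balb/c: Znf41-ps, Zfp987, Rex2, Zfp982, Zfp985 and Zfp979, most of them zinc finger genes. Zfp982 stood at -1.57 and -1.51 against 0.37 and 0.36 (-1.90 ± 0.14, adjusted p = 1.59e-04), with its other probe not called, and Zfp979 was at background in Balb/c, at least 4.36-fold lower. The others differed by -0.98 to -0.66, and the calls of Zfp987 and Rex2 were lost whichever of the 4 arrays was left out and that of Znf41-ps without Balb/c replicate 2 or either C57BL6 replicate. With slide as a block Znf41-ps, Zfp987, Rex2 and Zfp985 lost their calls. Genes of this cluster are close copies, so their probes may share targets. The run on chromosome 18 held Mpp7 and Wac, lower, and Fzd8 and Ccny, higher, and 3 of the 4 probes of Wac and 2 of the 3 of Ccny were not called. Calls of Wac and Ccny were lost whichever of the 4 arrays was left out, and that of Fzd8 without Balb/c replicate 1 or C57BL6 replicate 2, and all 3 with slide as a block.

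The IL-4 arrays give the strain difference again on other samples, though the labels do not say whether from other pools of mice. After 4 h, 1064 of the 1087 genes kept their sign (97.9%), and in 1027 (94.5%) the strains lay apart in the same direction with no overlap, where 39.8% of all genes did not overlap in either direction. After 18 h the sign was kept by 1050 (96.6%) and 1009 (92.8%) lay apart the same way, where 49.2% of all genes did not overlap. Of the 1087, 639 were called in the same direction at 4 h, 621 at 18 h and 545 at both, against 4.57% and 5.63% of all genes called at these times. Slide 2 carried Balb/c replicate 2 and C57BL6 replicate 1 at 4 h together, and between these arrays 1056 of the 1087 (97.1%) had the sign of the mock difference. This sets 1 array against 1. The share of all tested genes that kept their sign was not counted here, at 4 h or at 18 h. These arrays are not independent of the mock arrays: deviations of replicates correlated between treatments at 0.40 to 0.67 within Balb/c and 0.24 to 0.64 within C57BL6, over probes. The 1087 genes were also called with a spread estimated in part from the IL-4 arrays, so low overlap on those arrays is partly built in. A change of the strain difference with IL-4 was called in 0 genes at either time (limma with Benjamini-Hochberg), with 397 at 4 h and 929 at 18 h at an unadjusted p below 0.05. With 2 arrays a group, the lack of calls does not show that the differences stayed the same. Differences in mock, at 4 h and at 18 h were 5.77, 5.62 and 5.86 in Msh5, -3.89, -3.70 and -3.82 in Rab7b and -5.22, -4.90 and -5.68 in Trim12a. In Hebp2, a haem-binding protein, they were 4.39, 1.32 and 0.97, and its C57BL6 arrays read -3.05 and -3.12 in mock, 0.73 and 0.92 at 4 h and 1.81 and 1.69 at 18 h.

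**Figure D5:**
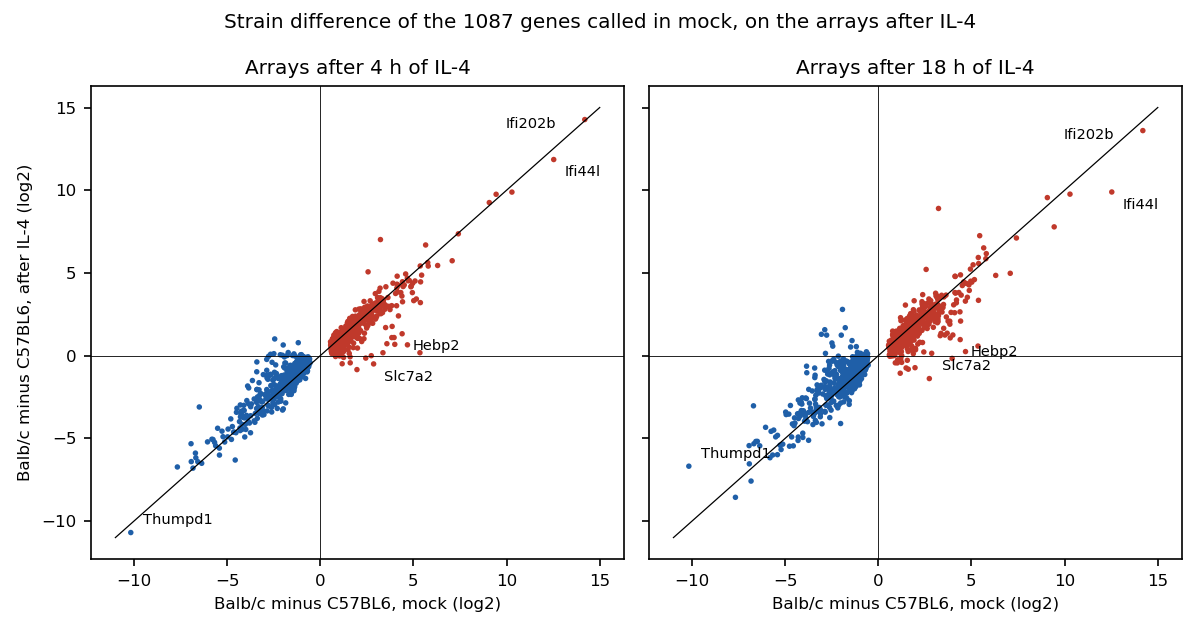
Strain difference (Balb/c minus C57BL6, log2) of the 1087 genes called in mock, on the arrays after 4 h (left) and 18 h (right) of IL-4 (vertical axes) against the difference in mock (horizontal axes). Red genes were higher and blue genes lower in untreated Balb/c cells, and the line marks equal differences. Most genes lie in the quadrant of their mock sign, 1064 at 4 h and 1050 at 18 h, and Hebp2 lies closer to 0 after IL-4 than in mock.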

How the data were processed

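RNA of each sample was hybridised to a 1-colour Agilent array. The deposited scanner files, made with Agilent Feature Extraction 9.5.1.1 per the file headers, hold a processed intensity for each spot, already background-subtracted and detrended within the array. A deposited table gives each probe as a ratio. Over 19344 bright probes it matched the signal divided by the mean of both C57BL6 mock arrays (r = 1), and it served as an alternative. The genome build of the authors' probe positions is not given in the sources used here.

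Control probes and outlier spots were left out, spots of a probe were averaged, and log2 intensity minus the array's 75th percentile was used. Kept were 25343 of 41174 probes, those well above background on both mock arrays of at least 1 strain. Names came from RefSeq by accession (16613 probes), symbol (3624) or synonym (1709), and otherwise from the files (3397). Limma 3.58.1 in R 4.3.3 fitted 6 group means to 12 arrays, with 6 residual degrees of freedom, so the spread is shared with the IL-4 arrays. It treated the arrays as independent, though deviations of replicates correlated between treatments, so the p-values may be too small. P-values were adjusted by Benjamini-Hochberg over all kept probes. Tested on simulated data of 25343 probes, the fit recovered 18 of 100 changes of 1 log2 and 74 of 100 of 2 log2, with 3 false calls. The simulated noise was independent between arrays and held no effect of pool or slide. Its false calls therefore give no error rate for the real arrays. The number of arrays limits the precision.

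Genes named are those called with the largest differences on 4 arrays or by bound, members of 47 gene lists, genes with opposed probes and runs of neighbours, except where the text says a gene was chosen after its values were seen. The members and lists were chosen with earlier results of these data known. Alternatives covered scaling, background, filters, probes per gene, array weights, blocks, the deposited ratios and leaving out each mock array. Results of some genes are not reported here.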

Additional observations from a re-analysis of the deposited data

Results flagged for a closer look

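Slc7a2, an importer of arginine, was the 1 named gene whose strain difference turned its sign with every array on the other side. In untreated cells it stood at -4.34 and -4.78 in Balb/c and at -7.74 and -7.11 in C57BL6, where neither array was well above background. After 4 h of IL-4 it read -1.09 and -1.37 in Balb/c and -0.96 and -0.50 in C57BL6, a strain difference of -0.50 log2. It was picked out because the arrays of the strains did not overlap at either time and lay in opposite orders, a rule that is no test of the change. In the fit over all probes (limma with Benjamini-Hochberg) the change of the strain difference from mock to 4 h had an adjusted p of 0.556. At 18 h the difference was 0.14. The untreated call was lost with normexp background correction and with a common floor for dim values.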

How the results depend on the processing

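The count of 1087 genes lay between 743 and 1169 under median or quantile scaling, normexp, array weights, outlier spots kept, fewer probes a gene, the deposited ratios, a filter on all 4 mock arrays and a common floor for dim values, the last chosen after seeing the data. Normexp could not be fitted well with at most 11 probes an array far below their local background, and these were left out (1169 called, against 43 with them). Normexp background correction ended the calls of Chil4, Cdh1, Fn1, Itgb2l, Klrb1c, Lcn2, Ms4a3, Postn and Slc7a2. The common floor ended those of Cdh1, Lcn2, Ms4a3 and Slc7a2. With no background filter 633 genes were called, with 606 apart the same way at 4 h and 601 at 18 h. A fit of only the 4 mock arrays called 391. Of 172 genes named or open to naming, called or not, 56 lost their call in that fit. Among them, Tap2, Trim6, Lair1, Fcrl1, Gclm, Steap3, Wdfy1, Itga9 and Tspan32 lost it under no other alternative. With slide as a block the counts were 593, 499 and 502. Leaving out 1 mock array gave 487 to 930 called genes, 474 to 851 apart at 4 h and 472 to 803 at 18 h. The scan group was not run as a block of its own, since it equals the slide. Median scaling put 40.0% of calls on the higher side, the main scaling 46.2% and the slide block 54.5%.

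The replicate numbers name 2 experiments. Deviations of same-numbered mock arrays correlated at 0.107 between strains over probes, with only 2 pairs. With the replicate number as a block 1992 genes were called, 1713 apart at 4 h and 1604 at 18 h, and with a random block of strain by replicate 1031 were called. In that last fit the correlation between arrays of the same strain and replicate number was 0.60.

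Of 135 called genes named or open to naming, 56 kept their call under every alternative, 82 whichever mock array was left out and 90 with the slide block. The median of a gene's probes reversed Arsk (-0.72), Gadd45gip1 (0.0205), Gcnt1 (0.43), Postn (-0.31) and Ttc12 (-0.13), all with probes on both sides of 0. A filter on all 4 mock arrays left Ppp1r14c with another probe (0.83).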
